A study of Mus musculus with 12 samples.

Results

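Tumours grown from the mouse colon cancer line MC38 in hosts without TLR4 were compared with the same tumours in wild-type hosts, both 1 day after intravenous Salmonella. MC38 is an established line derived from a C57BL/6 colon tumour. The wild-type hosts were C57BL/6 mice, the knockout hosts were C57BL/6 mice with a TLR4 deletion, and each of these groups was represented by 3 RNA-seq libraries of whole tumour tissue, titled F-1, M-1 and M-2. These 6 libraries were chosen by their labelled genotype and treatment, out of 12 in the series. The other 6, 3 per genotype, came from hosts given PBS by the same route and time, and here they serve as the background and add to the estimate of spread. The labels give the deletion for the host mice and not for the MC38 cells, and no source used here gives the Salmonella strain, the dose, the age of the mice or the deleted part of Tlr4. Nothing says that the 3 libraries within a group are from different mice. The Y-linked reads given below set F-1 apart from M-1 and M-2, so a Salmonella group is not a single mouse, but for M-1 and M-2 p-values speak only of a library-to-library spread that may be technical.

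TLR4 is the cell-surface sensor of lipopolysaccharide, the outer-membrane glycolipid of Gram-negative bacteria such as Salmonella. Lipopolysaccharide is passed by LBP in serum to CD14 and on to the pair of TLR4 and MD-2, the product of Ly96. The bound receptor then signals through TIRAP and MyD88 to NF-kB and inflammatory genes, and through TRAM and TRIF (Ticam2 and Ticam1) to IRF3 and interferon genes. In a whole tumour this response can come from infiltrating leukocytes, endothelium, fibroblasts and cancer cells alike.

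The deposited values are FPKM, fragments counted per gene, adjusted for gene length and library total, for 18609 genes, and the library totals recovered from them ran from 30514112 to 38769095 fragments. Of the genes, 12164 passed a minimum of 0.5 FPKM in at least 3 of the 12 libraries and were tested with limma on log2(FPKM + 0.5), after a scaling factor per library. A gene passed at an adjusted p under 0.05, with Benjamini-Hochberg adjustment over all 12164 genes. Every log2 fold change below is knockout minus wild type on that scale, which understates changes of low genes. SE is its standard error from limma with 3 libraries per group. It rests on a spread pooled over all 4 groups, PBS included, and is not the spread of the Salmonella groups alone. Values of single libraries are in FPKM as deposited, without scaling factors, and in the order F-1, M-1, M-2. Where 2 sets of 3 stand side by side the wild-type set comes first. Overlap of the libraries of a gene is also judged on these unscaled values. The genes named were picked by a rule given with the processing, except those said to be chosen after their values were seen. The leukocyte gene Ptprc lay between 8.97 and 15.2 FPKM in the 6 Salmonella libraries, whereas the epithelial genes Epcam, Krt8, Krt18, Cdh1 and Vil1 were all at or under 0.42 FPKM, so the epithelial origin of the line was not visible in these markers.

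One wild-type library stood apart. Across the 12164 genes, wild-type Salmonella M-2 correlated with its mates F-1 and M-1 at Pearson r = 0.972 and 0.969, and with the 3 knockout Salmonella libraries at 0.986, 0.982 and 0.988. Its mates F-1 and M-1 correlated with each other at 0.987 and with the knockout libraries at 0.936 to 0.965. These values are across genes, which are not independent replicates. Among the 671 genes lower in knockout hosts, M-2 was the wild-type library nearest to the knockout libraries for 618, and among the 504 higher genes for 420. M-2 thus narrowed most of the differences below, so leaving it out was bound to widen most of them. A call gained without M-2 shows how much that library weighs and is no added support. List counts that moved by over 1.5 times are also given without it, where 19.2% of all genes were lower and 19.7% higher. The 4 Y-linked genes counted held 0 and 1 fragments in the F-1 Salmonella libraries and 536 to 1247 in the M-1 and M-2 Salmonella libraries.

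Under Salmonella, 1175 of 12164 genes differed between the genotypes (9.66%). In knockout hosts 671 were lower (5.52%) and 504 were higher (4.14%), and the falls were the larger: 369 of the lower genes and 24 of the higher genes had a log2 fold change of 1 or more in size. The median over all tested genes was 0.04. With FPKM as deposited, without scaling factors, that median was 0.16 and the split turned to 834 higher and 591 lower genes, so small rises depend on the scaling. In FPKM as deposited, all 3 knockout libraries lay below all 3 wild-type libraries in 1159 genes (9.53%) and above them in 2128 (17.5%). The scaling factors were 0.871, 0.882 and 1.03 for the wild-type and 0.991, 1.02 and 1.03 for the knockout Salmonella libraries. Without them wild-type F-1 and M-1 read lower beside the knockout libraries than in the fit, which favours the larger count. Without wild-type M-2, 2340 genes were lower (19.2%) and 2395 higher (19.7%), among them 1174 of the 1175 in the same direction. Leaving out any other Salmonella library reduced the 1175 calls: to 43 without wild-type F-1, 125 without wild-type M-1, 583 without knockout F-1, 45 without knockout M-1 and 89 without knockout M-2. Leaving out the PBS wild-type libraries F-1 or M-2 gave 756 and 629. With voom, limma's test for counts, on the recovered fragments, 681 genes passed and 674 of them were shared. With the 6 Salmonella libraries alone and their own spread, 15 genes passed and 2694 had an unadjusted p under 0.05. None of the 15 is on the neutrophil chemokine, neutrophil marker, acute-phase, NF-kB or type I interferon list. The 15 include Pf4, Tmem40, Fabp7, Sox18, Msr1, Tlr9, Irgm2, Ifit3b and Arg1, listed after their values were seen.

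**Figure D1:**
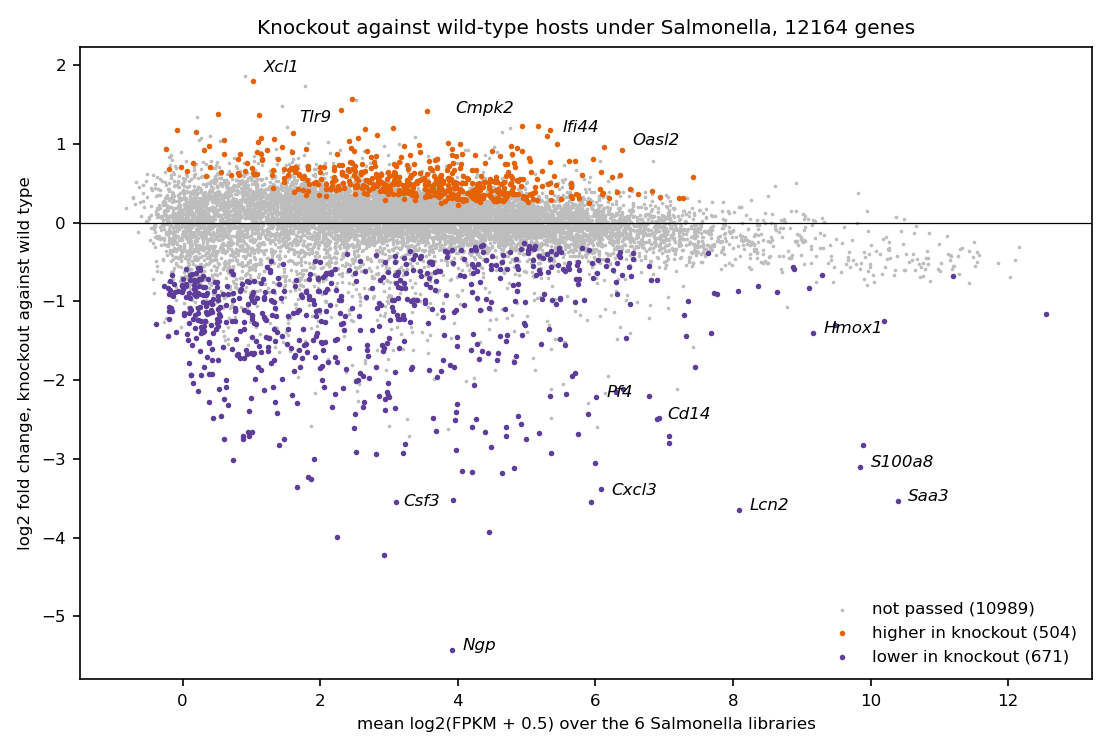
Each of the 12164 tested genes is a point, with its mean log2(FPKM + 0.5) over the 6 Salmonella libraries on the x axis and its log2 fold change, knockout against wild type, on the y axis. The 671 lower genes that passed reach down to -5.43 for Ngp, whereas the 504 higher genes stay under 2.

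The targeted gene was measured first. Tlr4 read 2.62, 3.78 and 2.58 FPKM in the wild-type Salmonella libraries and 1.72, 1.96 and 1.82 in the knockout ones. Every knockout library was below every wild-type library, but the log2 fold change of -0.68 (SE 0.20) had a limma adjusted p of 0.0519 and did not pass. Without wild-type M-2 it passed, at -0.85 with an adjusted p of 0.00779. Under PBS the same gene averaged 2.53 FPKM in wild-type and 2.29 in knockout hosts, with overlapping libraries. A gene-level value cannot show which part of Tlr4 was deleted, and tumour cells could add reads, so these levels do not check the genotype.

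Of the 24 genes of the TLR4 complex and its signalling chain, 3 passed, all lower in knockout hosts (background 5.52%), and the list median was 0.05. Without wild-type M-2, 6 were lower and 3 higher, beside 19.2% and 19.7% of all genes. The 3 were the lipopolysaccharide carriers Cd14 and Lbp and the inhibitory kinase Irak3, all of which are themselves known to be induced by inflammation. Cd14 read 352, 545 and 102 FPKM in wild-type and 67.6, 38.4 and 54.8 in knockout hosts, a log2 fold change of -2.49 (SE 0.56) with a limma adjusted p of 0.0293. Even the lowest wild-type library, M-2, was above the highest knockout library. With voom 1 of the 3 passed, and the adjusted p of Cd14 there was 0.0332. Irak3 fell by 2.14 on the log2 scale, from a wild-type mean of 17.4 ± 10.5 FPKM (SD, n = 3) to 3.64 ± 1.57. Lbp fell by 1.63, although wild-type M-2 at 6.79 FPKM lay just under knockout F-1 at 7.30.

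The other 20 chain members did not pass either. Ly96, which encodes MD-2, read 13.5, 14.4 and 9.29 against 7.80, 8.68 and 9.41 FPKM and did not pass (log2 fold change -0.61). The adaptors had log2 fold changes of 0.21 for Myd88, 0.14 for Tirap, 0.12 for Ticam1 and -0.14 for Ticam2, and none passed. Among the kinases, Irak1 stood at 0.08, Irak2 at -0.93, Irak4 at 0.19, Map3k7 (TAK1) at 0.20, Tbk1 at -0.15, Chuk at 0.08, Ikbkb at -0.04 and the scaffold Ikbkg at 0.07. Traf6 and Traf3, the ubiquitin ligases on the NF-kB and interferon branches, were at 0.03 and 0.16, Tab1 and Tab2, partners of TAK1, at 0.15 and -0.02, and the transcription factor Irf3 at 0.03. The receptor-like pair Cd180 and Ly86, which resembles TLR4 and MD-2, was higher in all 3 knockout libraries, at 1.74 and 0.97, without passing (adjusted p 0.0558 and 0.119). The sign of Ikbkb, Tab1, Tab2, Irak4, Traf6, Irf3, Ticam1 and Ticam2 turned under at least 1 alternative fit.

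Feedback genes of NF-kB were lower in knockout hosts. Of 25 listed subunits, inhibitors and feedback genes, 7 passed, all lower (background 5.52%), and the median was -0.80. They were Sod2, Tnip1, Zc3h12a, Nfkbiz, Rel, Nfkbia and Tnfaip3, 4 of them known brakes on the pathway. Sod2, the mitochondrial superoxide dismutase, read 90.7, 87.5 and 45.1 FPKM in wild-type and 31.3, 23.3 and 28.8 in knockout libraries, a fall of 1.48 on the log2 scale (SE 0.27, limma adjusted p 0.0161). Tnip1, a partner of the ubiquitin-editing protein A20, read 55.3, 60.2 and 36.2 against 29.1, 25.7 and 28.1, and the RNase gene Zc3h12a 34.5, 37.5 and 18.2 against 13.5, 8.49 and 13.2. In all 3 genes the wild-type libraries F-1 and M-1 were highest and M-2 fell between them and the knockout libraries. Without M-2, 19 of the 25 passed as lower, beside 19.2% of all genes, and the median was -1.18. The subunit genes Rela, Nfkb1, Nfkb2 and Relb, chosen after their values were seen, did not pass, with log2 fold changes of 0.06, -0.06, 0.13 and -0.20.

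Neutrophil-attracting chemokines fell together. All 6 tested members were lower in knockout hosts with no overlap between the genotypes, and the median was -2.45. Of all genes 5.52% were lower and 9.53% lay lower without overlap. All 6 also passed with voom, but none with the 6 Salmonella libraries alone, where the limma adjusted p of Cxcl3 was 0.104. Cxcl3 read 172, 621 and 84.9 FPKM in wild-type and 25.3, 18.2 and 21.5 in knockout libraries, 10.4-fold lower (log2 -3.38, SE 0.60, limma adjusted p 0.0161). Cxcl5 read 101, 78.2 and 31.6 against 14.5, 7.23 and 10.04 FPKM. In both ligands M-2 was the lowest wild-type library and still lay above every knockout library. Cxcr2, the receptor of these ligands on neutrophils, read 16.4, 25.5 and 9.06 against 3.72, 2.17 and 4.67. Of the others, Cxcl2, chosen like Cxcl1 after its values were seen, read 286, 1005 and 133 against 46.97, 38.4 and 81.8 FPKM. Cxcl1 fell by 2.20 on the log2 scale and the platelet-derived Ppbp by 1.74. Under PBS, Cxcl2 averaged 1.41 FPKM in wild-type and 0.466 in knockout hosts, so both genotypes were above the PBS level after Salmonella, and the knockout libraries less so. Cxcr1 and Cxcl15 were too low to be tested.

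Cxcl2 and Cxcl3 lie in the same cluster of chromosome 5, and their upstream sequences are shown because both fell together and both hold the same NF-kB motif. They are the 250 bases before the RefSeq start in GRCm38.p6, at chr5:90903649-90903898 and chr5:90785851-90786100, both on the plus strand, with the motif in capitals.
Cxcl2: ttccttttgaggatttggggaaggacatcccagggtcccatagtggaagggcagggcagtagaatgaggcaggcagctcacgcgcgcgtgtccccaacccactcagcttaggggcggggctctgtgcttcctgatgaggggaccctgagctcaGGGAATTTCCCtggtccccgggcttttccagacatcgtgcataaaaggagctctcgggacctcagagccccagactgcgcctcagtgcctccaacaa
Cxcl3: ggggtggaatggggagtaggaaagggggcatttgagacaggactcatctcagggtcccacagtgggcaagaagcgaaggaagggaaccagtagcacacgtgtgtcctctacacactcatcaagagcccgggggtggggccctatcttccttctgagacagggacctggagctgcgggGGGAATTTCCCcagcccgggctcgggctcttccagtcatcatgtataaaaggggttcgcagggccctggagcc
The consensus NF-kB motif was searched on both strands. It was found before 3 of the 5 neutrophil chemokine genes and 9 of the 21 NF-kB genes with a RefSeq promoter, against 5.64% of 9716 tested genes and 4.46% of all 27025 genes in the table. Over all 520 lower genes with a promoter the share was 7.12%. A match describes the letters and shows no binding.

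Of 19 inflammatory cytokine genes tested, 1 passed as lower, a share close to the background of 5.52%. It was Csf3, which encodes the growth factor G-CSF that drives neutrophil production. Csf3 read 62.7, 152 and 11.9 FPKM in wild-type and 5.83, 2.34 and 5.30 in knockout hosts, log2 -3.52 (SE 0.75, limma adjusted p 0.0254), and the call did not hold with voom (adjusted p 0.0829). Il6 read 48.2, 46.6 and 5.51 against 7.96, 2.17 and 2.39 and Il1a 20.2, 70.9 and 6.43 against 2.68, 3.58 and 5.31, with adjusted p-values of 0.0519 and 0.0532. The 2 wild-type libraries F-1 and M-1 were far above every knockout library for Il6, while M-2 overlapped them. Without M-2, 9 of the 19 passed as lower, and Il6 stood at -3.80. Tnf, at 9.39, 23.5 and 5.04 against 3.72, 3.37 and 8.47 FPKM, and Ifnb1, under 1.2 FPKM in every Salmonella library, did not pass. Il10 and Il1b, like Tnf and Ifnb1 chosen after their values were seen, had log2 fold changes of -2.58 and -2.11, with adjusted p-values of 0.0599 and 0.0547. Receptors of interleukin-1 fell: the decoy receptor Il1r2 by 3.15 on the log2 scale, from 39.1, 107 and 24.5 to 6.95, 3.52 and 6.15 FPKM, and the signalling receptor Il1r1 by 1.08, while Sigirr, an inhibitory relative, was higher by 0.40. These 3 were the calls among 8 tested genes, and leaving out M-2 gave 5 lower and 1 higher. Sigirr missed the threshold with voom (adjusted p 0.0585). Over all genes 4.14% were higher, and without M-2 19.2% were lower and 19.7% higher.

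Genes of the acute-phase response, secreted proteins that rise in infection, were lower. Of 19 tested, 10 passed, all lower (background 5.52%), with a median of -1.87 (6 with voom). Saa3, a serum amyloid A protein made in inflamed tissue, read 5348, 5207 and 2988 FPKM, against 672, 176 and 598 in knockout hosts. That is 11.6-fold lower (log2 -3.53, SE 0.82, limma adjusted p 0.0311). Saa1 read 30.1, 51.8 and 19.2 against 2.67, 0.476 and 1.52 FPKM and Saa2 6.22, 7.05 and 2.26 against 1.32, 0.805 and 0.710. These 2 genes are near-identical copies, so their separate values are uncertain. Hp, encoding haptoglobin that binds free haemoglobin, read 398, 393 and 226 against 97.5, 23.9 and 70.6. Orm1 fell by 3.99 on the log2 scale, but 1 wild-type library carried it (7.55, 130.0 and 5.19 FPKM), and it did not pass with voom (adjusted p 0.231). All wild-type libraries were above all knockout libraries for Saa1, Saa2, Saa3 and Hp. Lyz2 and C3, chosen after their values were seen, were not called, at 0.21 and -1.24.

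Neutrophil marker genes fell steeply. Of 26 tested markers, 18 were lower in knockout hosts (background 5.52%) and none higher. In 22 the knockout libraries lay lower with no overlap between the genotypes (background 9.53%). The median was -2.48, while the median under PBS was -0.01. With voom 10 passed as lower. Without wild-type M-2 the count was 24 of 26, beside 19.2% of all genes. The markers took 0.321%, 1.37% and 0.234% of all fragments in the wild-type Salmonella libraries and 0.0827%, 0.0545% and 0.101% in the knockout ones, against 0.0116% to 0.0157% under PBS. The largest of these shares was in wild-type M-1 and the smallest in knockout M-1. In whole tissue, fewer cells of a type and less RNA per cell cannot be told apart. The part of neutrophil RNA in the falls of other genes was not tested.

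Granule proteins led the list. Ngp, neutrophilic granule protein, read 82.7, 284 and 35.5 FPKM in wild-type and 4.33, 1.04 and 1.35 in knockout hosts, 43.2-fold lower (log2 -5.43, SE 0.68, limma adjusted p 0.00792). Lcn2, the siderophore-binding protein lipocalin-2, read 809, 2314 and 416 against 94.1, 38.6 and 143 (12.5-fold lower, adjusted p 0.0222). Camp, the cathelicidin precursor, read 7.72, 30.97 and 4.41 against 0.847, 0.258 and 1.35 FPKM. All wild-type libraries were above all knockout libraries for these 3 genes, with M-1 highest and M-2 lowest. Retnlg fell by 3.54 on the log2 scale (136, 488 and 119 against 28.4, 14.9 and 14.5 FPKM) and the surface protein gene Cd177 by 3.36. Mmp8, neutrophil collagenase, fell by 3.17. S100a8, 1 of the subunits of calprotectin, read 1455, 9109 and 1297 against 384, 238 and 389 FPKM, and its partner S100a9 1294, 8650.4 and 1254 against 381, 264 and 518, both chosen after their values were seen. In each, the wild-type library M-1 was far above its mates, and no libraries overlapped. Ngp, Camp and Cd177 missed the threshold with voom (adjusted p 0.0555, 0.0751 and 0.0710).

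The upstream sequences of Ngp and Lcn2 are given because a motif of the C/EBP factors, TTGCNNAA, is found in both and was more frequent before the lower genes. Ngp is at chr9:110419558-110419807 on the plus strand and Lcn2 at chr2:32387740-32387989 on the minus strand of GRCm38.p6, each the 250 bases before the RefSeq start, with matches on either strand in capitals.
Ngp: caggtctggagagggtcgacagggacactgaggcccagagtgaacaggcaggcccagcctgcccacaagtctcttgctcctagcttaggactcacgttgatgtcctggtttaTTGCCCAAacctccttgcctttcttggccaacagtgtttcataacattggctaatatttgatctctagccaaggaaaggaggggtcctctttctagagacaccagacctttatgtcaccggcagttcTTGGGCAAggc
Lcn2: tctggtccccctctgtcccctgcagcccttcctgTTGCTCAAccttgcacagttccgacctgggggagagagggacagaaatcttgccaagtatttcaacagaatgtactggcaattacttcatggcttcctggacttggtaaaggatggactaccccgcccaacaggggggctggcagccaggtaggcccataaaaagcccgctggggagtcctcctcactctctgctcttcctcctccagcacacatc
TTGCNNAA was found before 6 of the 10 genes with a RefSeq promoter among the 12 largest falls and before 9 of 15 acute-phase genes. Of 520 lower genes with a promoter it was found before 15.0%, of 398 higher genes before 8.29%, of 9716 tested genes before 9.24% and of all 27025 before 10.8%. No binding was measured.

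**Figure D2:**
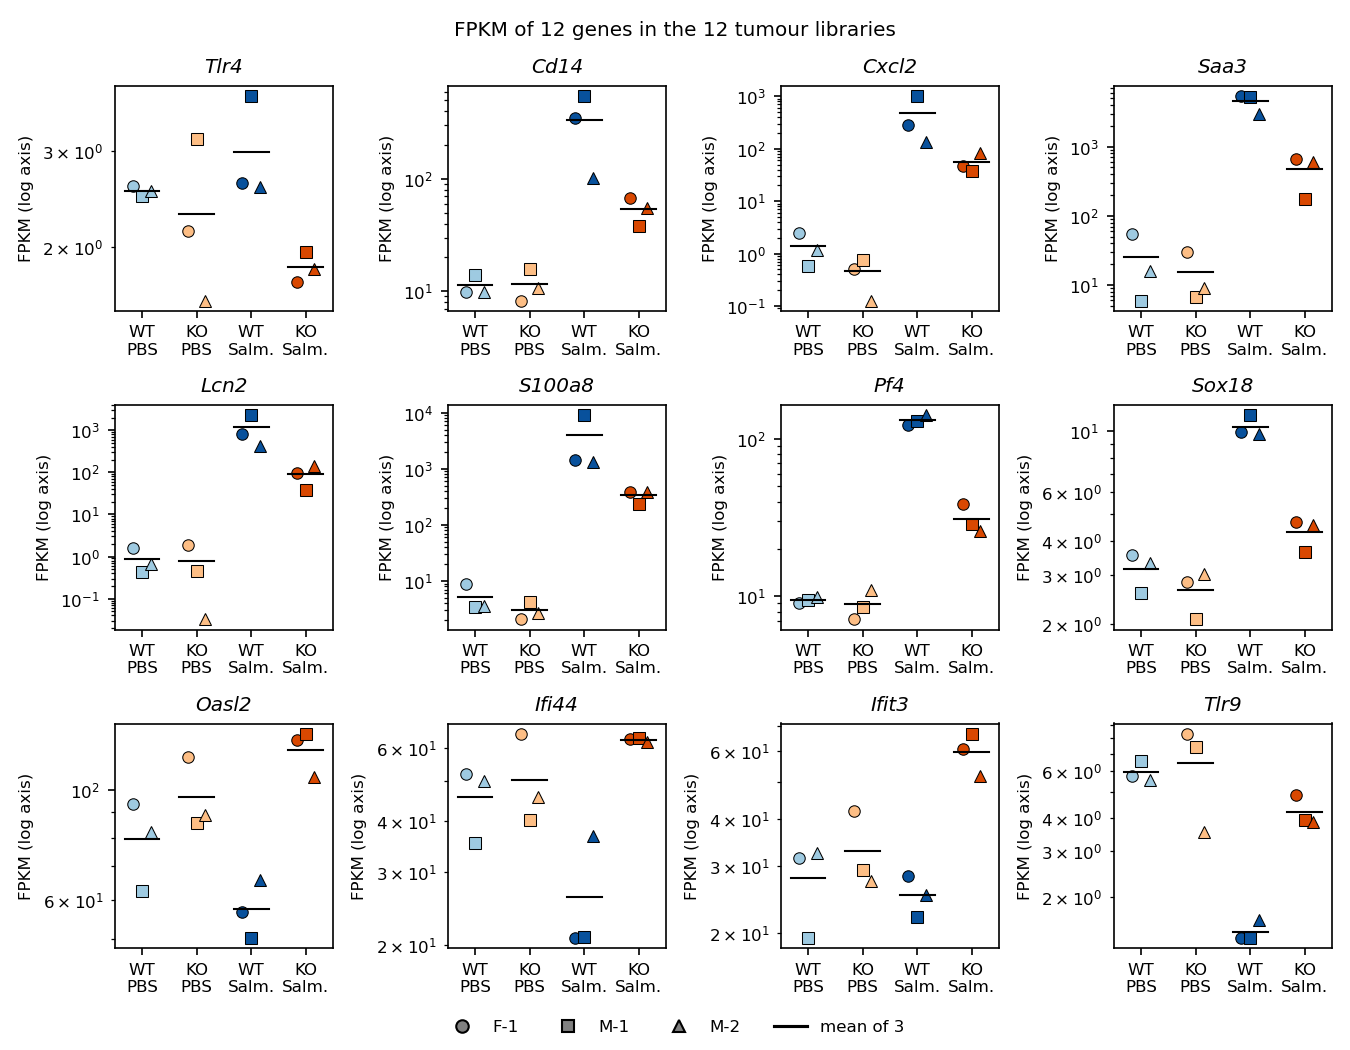
FPKM on a log axis for 12 genes in the 12 libraries, by genotype (WT wild type, KO knockout) and treatment, with circles for F-1, squares for M-1, triangles for M-2 and a bar at the mean of 3. Cd14, Cxcl2, Saa3, Lcn2 and S100a8 rise from PBS to Salmonella in both genotypes and stay lower in the knockout, while Oasl2, Ifi44 and Ifit3 are higher in the knockout Salmonella libraries.

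Other bacterial sensors moved in both directions. Of 23 tested, 6 were lower and 2 higher in knockout hosts (background 5.52% and 4.14%), with a median of -0.41. Without M-2 the counts were 9 and 3, beside 19.2% and 19.7% of all genes. Pglyrp1, a peptidoglycan-binding granule protein, read 39.8, 77.5 and 21.2 against 7.02, 3.83 and 6.27 FPKM, and the scavenger receptor Msr1 12.6, 9.59 and 11.97 against 5.20, 5.24 and 5.86 (log2 -1.12, SE 0.24, limma adjusted p 0.0214). The lectin receptor Clec4e and the formyl-peptide receptors Fpr1 and Fpr2 also fell, by 2.49, 2.45 and 2.59, and were chosen after their values were seen. Nlrc4, the adaptor of the inflammasome that detects bacterial flagellin and secretion needles, fell by 0.92, from 1.05, 0.593 and 0.523 to 0.163, 0.120 and 0.238 FPKM, on 19 to 144 fragments. The risers were the nucleic-acid sensors Tlr9 and Tlr3. Tlr9 read 1.40, 1.40 and 1.64 FPKM in wild-type and 4.89, 3.91 and 3.86 in knockout hosts (log2 1.15, SE 0.23, limma adjusted p 0.0197), and Tlr3 3.04, 3.32 and 6.92 against 9.53, 13.2 and 8.91. For Tlr9 the PBS means were 5.96 and 6.44 FPKM, so the wild-type Salmonella libraries were the low ones. With voom Tlr9 missed the threshold (adjusted p 0.0561). Tlr2 was lower in every knockout library without passing (-0.996, adjusted p 0.0645), and Tlr5, the flagellin receptor, was too low to test.

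Chemokines for monocytes and lymphocytes fell only in part. Over all genes 5.52% were lower and 4.14% higher, and without M-2 19.2% and 19.7%. Of 13 monocyte chemokine genes 2 passed as lower (5 lower and 3 higher without M-2): Ccr1, a receptor, at 39.2, 62.8 and 19.1 against 8.71, 8.19 and 10.6 FPKM, and its ligand Ccl9. For Ccl9, wild-type M-1 at 26.6 FPKM lay under knockout F-1 at 27.4, and the call did not hold with voom (adjusted p 0.0517). Ccl2 read 971, 542 and 428 against 347, 316 and 296 (log2 -1.07, adjusted p 0.0533). Cx3cr1, the fractalkine receptor of resident monocytes and macrophages, chosen after its values were seen, ran the other way at 0.0477, 0.0524 and 2.60 against 2.51, 3.78 and 3.19 FPKM. It did not pass (limma adjusted p 0.0540). Without M-2, whose value was close to the knockout ones, it did (log2 2.67, limma adjusted p 2.14e-05). Of 11 lymphocyte chemokine genes 2 were lower and 1 higher (5 and 1 without M-2). The B cell attractant Cxcl13 fell by 3.54 on the log2 scale (52.96, 25.3 and 15.7 against 5.59, 0.488 and 2.54 FPKM) and Ccl5 by 1.83. Xcl1, which attracts cross-presenting dendritic cells, was the largest rise among the 504 higher genes, at 0.576, 0.0633 and 1.53 in wild-type and 1.96, 6.92 and 2.71 FPKM in knockout hosts (log2 1.80, SE 0.49). These levels rest on 1 to 139 fragments, and Xcl1 missed the threshold with voom (adjusted p 0.0825). Under PBS Xcl1 averaged 3.76 FPKM in wild-type and 6.44 in knockout hosts, so the wild-type Salmonella libraries were the low ones. The interferon-induced Cxcl9 and Cxcl10, chosen after their values were seen, overlapped between genotypes, at -0.70 and -0.20.

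Cell-death and host-defence enzymes were lower where they were called. Beside the counts here, 5.52% of all genes were lower, and 19.2% without M-2. Among 15 inflammasome and pyroptosis genes 4 were lower, 8 without M-2: the necroptosis kinase Ripk3 (7.72, 8.42 and 5.07 against 3.85, 2.11 and 3.42 FPKM), the membrane-rupture protein Ninj1, Nlrc4 and Nlrp3. Of 18 phagocyte oxidase and antioxidant genes 7 were lower, all 7 passed with voom, and 12 were lower without M-2. Hmox1, haem oxygenase 1, read 1127, 959 and 643 against 441, 290.0 and 389 FPKM (log2 -1.40, SE 0.24, limma adjusted p 0.0134), and the cystine transporter Slc7a11 14.9, 18.1 and 10.4 against 6.66, 5.41 and 6.52. Of 9 genes for arginine, nitric oxide and itaconate, 4 were lower, among them the arginine transporter Slc7a2 (12.9, 7.63 and 2.57 against 0.837, 0.353 and 0.727 FPKM), Arg2, the cofactor enzyme gene Gch1 and Nos2, the inducible nitric oxide synthase. Leaving out M-2 gave 8 lower. None of the 4 passed with voom, whose adjusted p for Slc7a2 was 0.0549. Complement had 2 lower genes of 14 (5 without M-2), Cd55 at -0.86 and properdin Cfp at -1.28. Of 12 glucocorticoid-induced genes 6 were lower, with Per1, Klf9, Lcn2, the phosphatase gene Dusp1 and the metallothioneins Mt1 and Mt2. Klf9 was 11.3, 12.1 and 13.7 against 8.72, 8.60 and 8.86 FPKM, and its PBS means already differed in the same direction, 12.6 in wild-type and 8.17 in knockout hosts (unadjusted p 0.000694, not past the adjusted threshold).

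**Figure D3:**
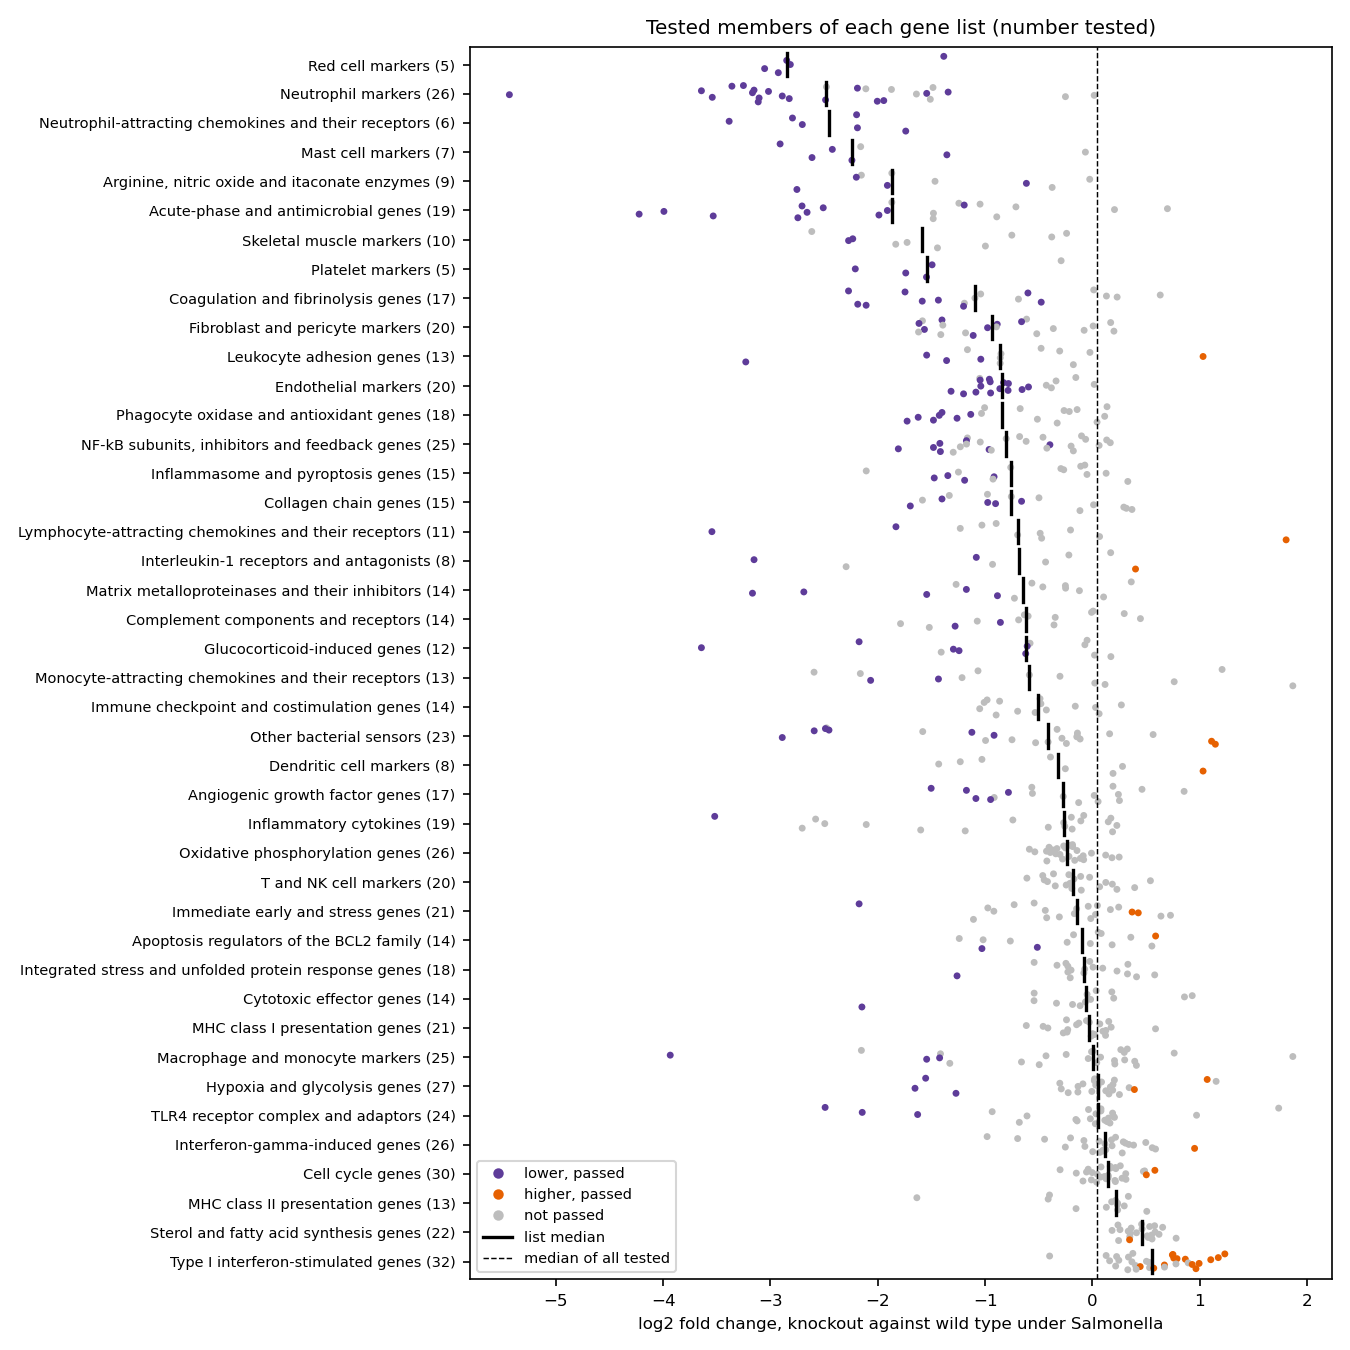
Each point is a tested gene placed at its log2 fold change, knockout against wild type under Salmonella, in the gene lists with at least 5 tested members, ordered by the list median (black bar). Red cell, neutrophil, neutrophil chemokine and mast cell lists, with medians of -2.85, -2.48, -2.45 and -2.24, sit farthest to the left of the all-gene median of 0.04 (dashed), and the type I interferon-stimulated genes lie furthest to the right at a median of 0.55.

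Vascular and blood-borne genes were lower in knockout hosts. Over all genes 5.52% were lower and 4.14% higher, and without M-2 19.2% and 19.7%. Of 20 endothelial markers, 14 were lower and none higher, with a median of -0.84, and 13 passed with voom. Sox18, an endothelial transcription factor, read 9.97, 11.5 and 9.75 against 4.67, 3.63 and 4.57 FPKM (log2 -1.32, SE 0.17, limma adjusted p 0.00672), and Pecam1 20.8, 27.7 and 20.7 against 14.9, 9.53 and 11.9. The libraries of these 2 genes did not overlap, and in FPKM as deposited M-2 was close to F-1. After scaling, the mean of the endothelial list was lowest in M-2 among the wild-type libraries. It stood 1.11, 1.33 and 0.867 above the wild-type PBS mean on the log2 scale. Selp, P-selectin, which captures rolling leukocytes, read 14.8, 19.7 and 3.11 against 1.38, 0.345 and 0.590, a log2 fold change of -3.23 that did not pass with voom (adjusted p 0.0915). Among 13 adhesion genes 4 fell, with Pecam1, Selp and Itgam among them, and Itgax, an integrin of dendritic cells and macrophages, rose, from 0.827, 0.795 and 1.29 to 2.91, 3.04 and 2.12 FPKM. With voom 2 of these 5 adhesion calls passed, and without M-2, 7 adhesion genes were lower and 1 higher. Of 17 coagulation genes 9 were lower, 6 with voom. Serpine2, a thrombin inhibitor, read 9.26, 11.5 and 5.54 against 2.72, 2.36 and 3.18 FPKM. Thbd, the anticoagulant receptor thrombomodulin, read 4.70, 11.5 and 3.29 against 1.65, 0.562 and 0.909, and Tfpi, the inhibitor of the tissue factor pathway, fell by 0.48 on the log2 scale. Thbs1, Vwf, F3, F10 and F13a1 were also among the lower genes.

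The smallest p of all tested genes belonged to a platelet gene. Pf4, platelet factor 4, read 122, 131 and 142 FPKM in the wild-type Salmonella libraries and 38.7, 28.9 and 26.2 in the knockout ones, 4.62-fold lower (log2 -2.21, SE 0.16, limma adjusted p 0.000112). Under PBS it averaged 9.46 ± 0.381 and 8.88 ± 1.97 FPKM (SD, n = 3). No libraries overlapped, and in FPKM as deposited M-2 was the highest wild-type library. Tmem40, on the platelet list too, read 3.97, 3.76 and 4.90 against 1.01, 1.34 and 1.39 FPKM, and Ppbp and Itgb3 were the other calls, 4 of 5 tested platelet markers. For Tmem40 and Ppbp as well M-2 was the highest wild-type library in FPKM as deposited. After scaling, the mean of the 5 tested platelet markers was instead lowest in M-2. It stood 2.07, 2.40 and 1.98 above the wild-type PBS mean on the log2 scale. Another 7 of the 12 platelet markers were too low to test. The background for the platelet and red cell counts was 5.52% of all genes lower. Red cell markers fell in 5 of 5 tested, with Hbb-bs at 242, 237 and 92.7 against 31.4, 24.7 and 14.9 FPKM, but 2 with voom, and their PBS median was already -1.39. Hba-a1, Hba-a2, Hbb-bs and Hbb-bt are near-identical pairs whose reads can be split, so their separate values are uncertain. Whether blood content plays a part in the platelet and endothelial results was not tested.

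Stromal genes followed the same direction. Over all genes 5.52% were lower, and without M-2 19.2% were lower and 19.7% higher. Of 20 fibroblast and pericyte markers 7 were lower, of 15 collagen chains 5 and of 14 matrix metalloproteinases and inhibitors 5, and none was higher. The list medians were -0.94, -0.76 and -0.65. Leaving out M-2 gave 13, 10 and 8 lower genes, and 3 collagen chains then passed as higher. Cxcl12 read 13.2, 8.89 and 9.07 against 4.54, 1.90 and 4.10 FPKM, Loxl1 14.3, 15.5 and 11.6 against 9.17, 5.12 and 8.56, and Col3a1, a main fibrillar collagen, 776, 760.3 and 727 against 586, 433 and 566. Col5a2 fell by 1.70 on the log2 scale and the basement-membrane chain Col4a2 by 0.90. Mmp19 read 15.6, 11.3 and 9.65 against 6.56, 4.84 and 5.35 FPKM, and the inhibitor Timp1 562, 624 and 399 against 318, 273 and 338 (log2 -0.88, SE 0.19, limma adjusted p 0.0210). Angiogenic genes had 5 lower of 17 (9 lower and 1 higher without M-2), with Angptl4 at 50.7, 48.8 and 28.7 against 19.6, 12.05 and 16.5 FPKM and the endothelial receptors Tek and Flt1 at -1.09 and -0.78. Vegfa was not called (0.25).

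Markers of other cells in and next to a tumour are given beside these results. Of all genes 5.52% were lower, and 19.2% without M-2. Mast cell markers were lower in 5 of 7, with Fcer1a at 10.2, 4.37 and 3.14 against 0.598, 0.427 and 1.05 FPKM and the protease Mcpt4 at 27.2, 11.6 and 6.49 against 2.81, 1.54 and 1.47, and 1 passed with voom. Skeletal muscle markers summed to 113, 97.6 and 54.3 FPKM in the wild-type and 146, 6.38 and 17.1 FPKM in the knockout Salmonella libraries, 2 of 10 tested being lower, Myh1 and Mb (3 without M-2). Adipocyte markers summed to 183, 93.1 and 68.4 and 114, 12.04 and 20.2 FPKM with none of 4 called. None of 3 keratinocyte markers was called. Leaving out M-2 gave 1 lower gene each for adipocyte, keratinocyte and tumour epithelium markers. Among the knockout libraries both sums were highest in F-1 and lowest in M-1, and their part in the stromal falls was not tested. Krt20 was the only tumour epithelium marker of 11 high enough to test, and it did not pass (log2 -0.83).

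Genes stimulated by type I interferon were the main group that rose in knockout hosts. Of 32 tested, 14 passed as higher (background 4.14%) and none as lower. In FPKM as deposited, 30 had every knockout library above every wild-type library (background 17.5%), a count not repeated on scaled values. The median was 0.55 against 0.04 for all genes, and under PBS it was 0.18. The count was 14 without M-2, where 19.7% of all genes were higher, and 13 with voom. Oasl2, an antiviral oligoadenylate synthetase relative, read 56.7, 50.2 and 65.8 FPKM in wild-type and 126, 129.8 and 106 in knockout libraries, 1.90-fold higher (log2 0.93, SE 0.16, limma adjusted p 0.0134). Ifi44 read 20.7, 20.9 and 36.8 against 63.3, 63.4 and 62.1, and Ifit2 15.02, 10.8 and 13.6 against 27.7, 26.6 and 25.1. Ifit3 read 28.3, 22.003 and 25.1 against 61.04, 66.8 and 51.8 FPKM and Cmpk2, a mitochondrial nucleotide kinase, 18.8, 13.7 and 24.7 against 46.3, 56.8 and 43.5. In these 5 genes every knockout library was above every wild-type library. The PBS means of Ifit3 were 27.9 and 32.9 FPKM, close to the wild-type Salmonella values. For Oasl2 and Ifi44 the wild-type Salmonella libraries lay below the wild-type PBS means of 79.5 and 45.8 FPKM.

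Not every interferon gene passed, although 31 of the 32 tested had a positive log2 fold change. Isg15, Rsad2, Irf7 and Bst2, chosen after their values were seen, were higher in each knockout library but did not pass, at 0.50, 0.40, 0.25 and 0.38. Outside the list, Ifit1bl1 (3.44, 1.80 and 2.69 against 10.2, 8.34 and 9.84 FPKM), Ifit3b, the cholesterol hydroxylase gene Ch25h and the Schlafen gene Slfn9 were among the 12 largest rises. Ifit3 and Ifit3b are close copies whose reads may be shared. Of these, Ifit1bl1 and Ifit3b stood at 1.58 and 1.41, Ch25h at 1.20 and Slfn9 at 1.20. Ch25h missed the threshold with voom (adjusted p 0.101). For Ch25h the wild-type and knockout means were 10.1 and 12.5 FPKM under PBS and 3.51 and 9.52 under Salmonella. The interferon genes themselves were near the detection limit, with Ifnb1 at 0.620, 0.426 and 0.309 against 0.104, 1.17 and 0.140 FPKM. Among interferon-gamma-induced genes 1 of 26 passed (background 4.14%), the GTPase Irgm2 at 20.95, 15.99 and 21.7 against 43.96, 42.3 and 38.8 FPKM. The median of 0.12 turned to -0.12 without M-2, where 1 was higher and 2 lower, beside 19.7% and 19.2% of all genes.

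The upstream sequences of Ifit3 and Slfn9, both among the 12 largest rises, are shown for the core of the interferon-stimulated response element, GAAANNGAAA, searched on both strands. Ifit3 is at chr19:34583279-34583528 on the plus strand and Slfn9 at chr11:82991831-82992080 on the minus strand of GRCm38.p6, the 250 bases before the RefSeq start, with matches in capitals.
Ifit3: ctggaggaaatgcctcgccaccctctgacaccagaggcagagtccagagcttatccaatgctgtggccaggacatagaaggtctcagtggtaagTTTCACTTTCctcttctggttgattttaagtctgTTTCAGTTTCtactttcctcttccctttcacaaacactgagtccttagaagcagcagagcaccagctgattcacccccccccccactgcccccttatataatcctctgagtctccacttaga
Slfn9: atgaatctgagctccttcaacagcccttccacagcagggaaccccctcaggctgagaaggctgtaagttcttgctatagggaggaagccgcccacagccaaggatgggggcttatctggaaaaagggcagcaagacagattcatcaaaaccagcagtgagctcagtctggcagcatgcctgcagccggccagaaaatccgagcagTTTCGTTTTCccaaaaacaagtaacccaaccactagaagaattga
GAAANNGAAA was found before 10 of the 23 listed interferon genes with a RefSeq promoter (43.5%) and 4 of the 11 promoters among the 12 largest rises. Of the listed interferon genes that passed as higher, 4 of 11 with a promoter held it (36.4%), no larger a share than in the whole list. Of 398 higher genes with a promoter it was found before 7.79%, of 520 lower genes before 2.88%, of 9716 tested genes before 3.44% and of all 27025 before 3.46%. Cmpk2, Ifi44 and Oasl2 had no match in their window.

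**Figure D4:**
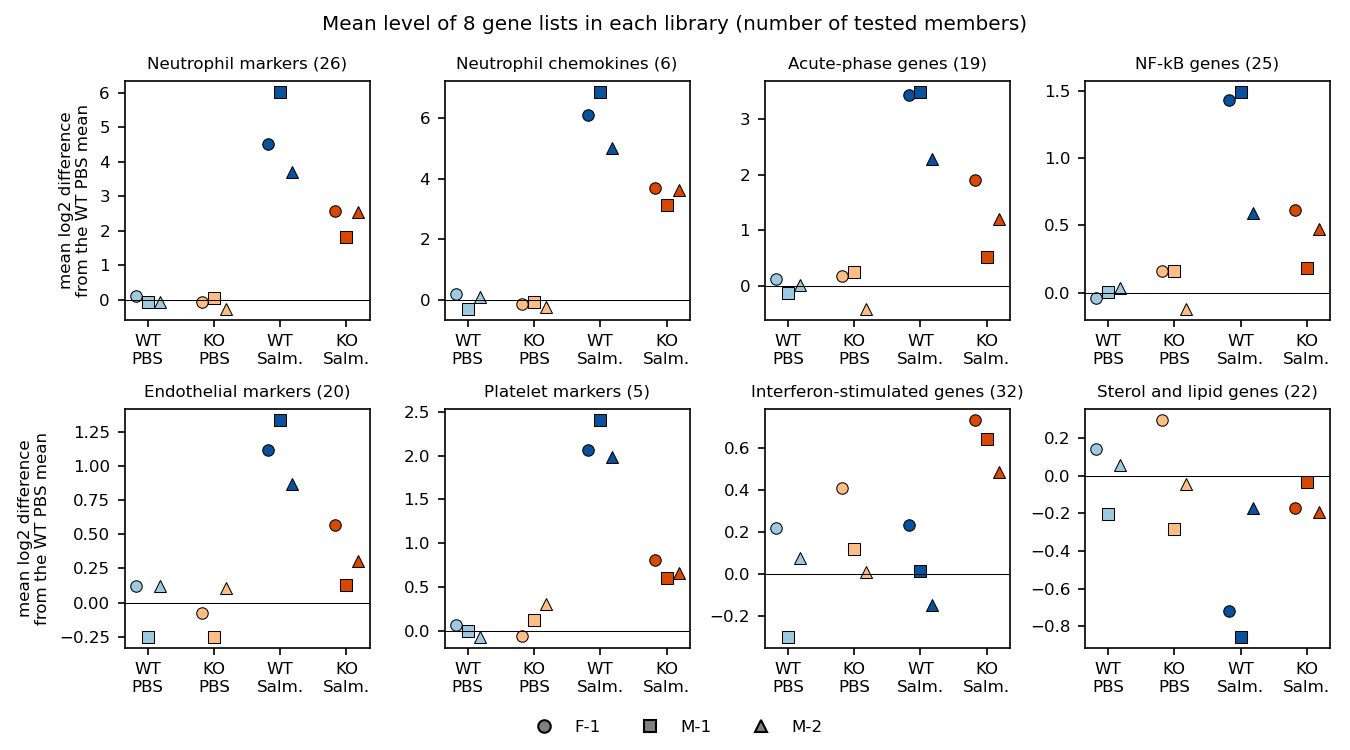
For 8 gene lists, each point is 1 library's mean log2 difference from the wild-type PBS mean over the tested members, with circles for F-1, squares for M-1 and triangles for M-2. Wild-type Salmonella M-2 lies between its mates and the knockout libraries for neutrophil, chemokine and acute-phase genes and beside the knockout libraries for NF-kB and sterol genes, but with its mates for platelet markers, and the interferon-stimulated genes are highest in the 3 knockout Salmonella libraries.

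Other genes outside the interferon list were also higher in knockout than in wild-type hosts. Gatm, the first enzyme of creatine synthesis, read 2.44, 1.20 and 4.34 against 8.30, 8.42 and 7.12 FPKM and the neuronal cytoskeleton gene Dpysl3 18.9, 15.4 and 35.4 against 41.6, 75.8 and 58.2. Gatm missed the threshold with voom (adjusted p 0.108). The PBS means in wild-type and knockout hosts were 14.9 and 17.0 FPKM for Gatm and 60.3 and 61.3 for Dpysl3. The wild-type Salmonella libraries were thus the low ones, and the knockout Salmonella means of 7.94 and 58.6 FPKM were not above the PBS level. All 22 sterol and fatty acid synthesis genes had positive log2 fold changes, with a median of 0.46, but 1 passed, Srebf1, at 24.8, 24.7 and 34.98 against 41.4, 39.3 and 36.2 FPKM. Without M-2, whose values lay with the knockout libraries, 19 of the 22 passed. Scd1 and Scd2, fatty acid desaturases, were at 0.52 and 0.78 with adjusted p-values of 0.0505 and 0.0659. Of 30 cell cycle genes, Ccnd1 (56.3, 49.9 and 71.1 against 76.3, 118 and 99.1 FPKM) and Foxm1 rose, and 7 were higher without M-2. Over all genes 4.14% were higher and 5.52% lower, and without M-2 19.7% and 19.2%. Neither cell cycle count is far from these shares, which also stand beside the next lists. Of 21 immediate early genes, Jun and Ier2 rose by 0.43 and 0.37, and Dusp1 fell. That balance turned without M-2, to 4 higher and 8 lower. In the hypoxia and glycolysis list of 27, Aldoc (0.758, 1.06 and 1.90 against 3.44, 2.71 and 3.67 FPKM) and Pfkl rose while Adm, Pfkfb3 and the glucose transporter gene Slc2a3 fell (4 higher and 6 lower without M-2). The apoptosis gene Bbc3 rose by 0.59 while the survival gene Mcl1 and the death gene Pmaip1 fell, by 0.51 and 1.03, among 14 genes of the BCL2 family (2 higher and 6 lower without M-2). With FPKM as deposited the medians were 0.59 for sterol genes and 0.28 for cell cycle genes, beside 0.46 and 0.15 with scaling factors. Of 18 integrated stress response genes 1 passed, the cystine transporter Slc7a11 already given, against 7 lower and 1 higher without M-2.

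Few antigen presentation and lymphocyte genes passed. None of 13 MHC class II, 21 MHC class I, 14 checkpoint and costimulation or 20 T and NK cell genes passed with limma, and none with voom. Unadjusted p-values under 0.05 were found for 2, 1, 2 and 1 of them. Leaving out M-2 gave 1, 5, 5 and 2 lower genes, in that order, and 1 higher T and NK cell gene. Beside these and the counts below, 19.2% of all genes were lower and 19.7% higher without M-2, and 5.52% and 4.14% with it. The class I count of 5 among 21 is close to that share. H2-Ab1, chosen after its values were seen, read 90.2, 38.1 and 27.3 against 79.1, 50.3 and 51.01 FPKM, against PBS means of 306 and 392. Cd274, which encodes the checkpoint ligand PD-L1, read 33.5, 37.1 and 13.5 against 14.3, 11.7 and 16.4, and its difference did not pass, but did without M-2 (log2 -1.53, adjusted p 0.0222). The medians were 0.22 for class II, -0.03 for class I, -0.51 for checkpoint and -0.18 for T and NK genes, those of class II and class I changing sign without M-2 and with FPKM as deposited, respectively. Of 14 cytotoxic effector genes 1 fell, the granule proteoglycan gene Srgn, which leukocytes of many kinds express, at 156, 315 and 79.5 against 41.9, 30.2 and 45.6 FPKM. Among 25 macrophage and monocyte markers Chil3 (65.6, 199 and 41.4 against 6.04, 6.25 and 4.11 FPKM), Itgam and Fcgr3 fell, and the median of 0.01 turned to -0.03 with median-of-ratios scaling. Without M-2, 5 of these markers were lower and 3 higher. Of 8 dendritic cell markers 1 passed, Itgax as higher, and 2 more were lower without M-2. B cell markers had 3 tested members, of which Pax5 rose by 0.61, and 2 were higher without M-2. None of 26 oxidative phosphorylation genes passed with limma or voom, but 19 were lower and 1 higher without M-2.

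Under PBS, 0 of 12164 genes differed between knockout and wild-type hosts with limma (0%), 175 had an unadjusted p under 0.05, and voom also gave 0. The difference between the Salmonella and the PBS contrast passed for 3 genes (0.0247%): Pf4, Tmem40 and Fabp7. Under PBS Tmem40 averaged 1.21 FPKM in wild-type and 2.41 in knockout hosts, the reverse order, without passing. Fabp7, a fatty-acid-binding protein, read 5.72, 3.70 and 3.12 FPKM in wild-type and 0.316, 0.102 and 0.355 in knockout Salmonella libraries and at most 0.24 under PBS, with a difference of contrasts of -2.80 (SE 0.37, limma adjusted p 0.0251). With voom none of the 3 passed, and without wild-type M-2, 2359 genes did. Of the 162 genes named by rule, 102 passed under Salmonella and 0 under PBS. Under PBS the haemoglobin genes Hbb-bs and Hba-a1 had log2 fold changes of -1.56 and -1.52, without passing.

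**Figure D5:**
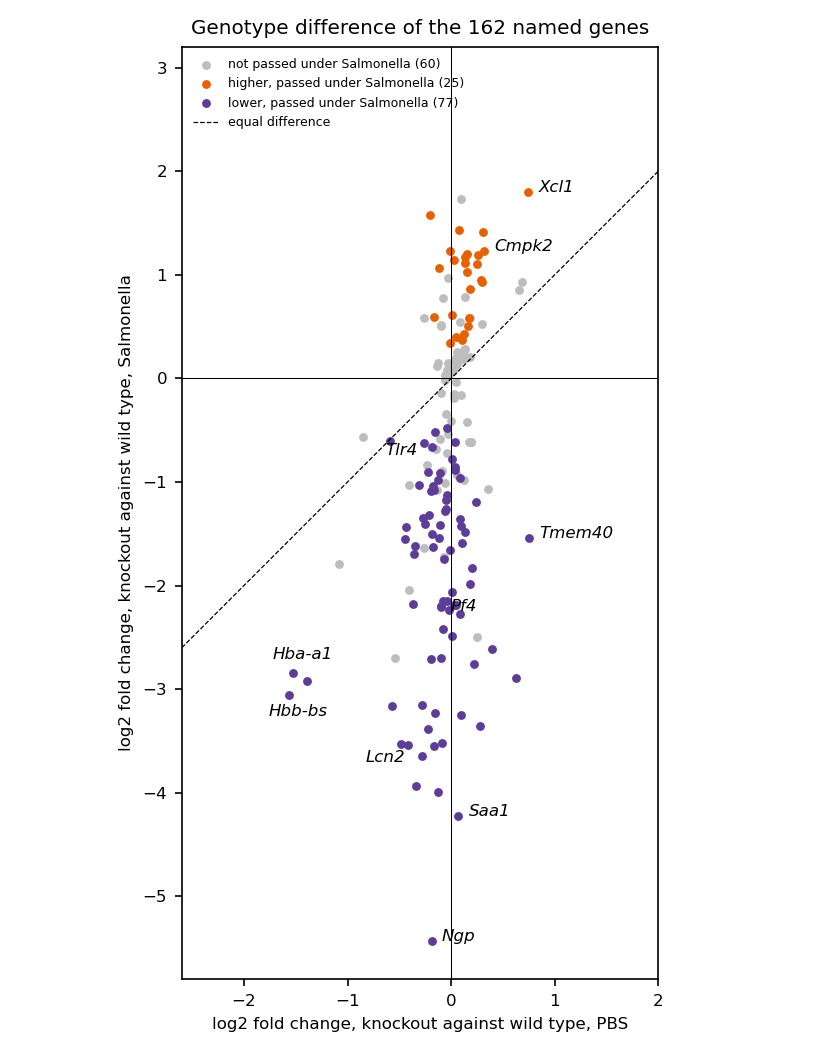
Each of the 162 named genes is a point, with its log2 fold change, knockout against wild type, under PBS on the x axis and under Salmonella on the y axis. Most points lie within 0.5 of 0 on the x axis while they spread from -5.43 to 1.80 on the y axis, and the haemoglobin genes Hbb-bs, Hba-a1 and Hbb-bt lie farthest from it.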

How the data were processed

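RNA from whole MC38 tumours was sequenced in 12 libraries, of which the 6 from Salmonella-treated hosts are compared here. The authors deposited FPKM per gene and library. Trimming with fastp, alignment with HISAT2 and counting with HTSeq are named per the submitters' processing notes, and versions, genome build, annotation and whether counting used strand are not given in the sources used, so overlapping and antisense genes cannot be told apart. The deposited FPKM steps gave back whole fragment counts within 0.01 for all 18222 genes above 0, and 387 genes were 0 throughout. FPKM was divided by a scaling factor per library (trimmed mean of log ratios, trims of 30% and 5%) and tested as log2(FPKM + 0.5) with limma 3.58.1 in R 4.3.3, with trend and robust settings, 1 mean for each of 4 groups over all 12 libraries and 8 residual degrees of freedom, two-sided, for genes at 0.5 FPKM or more in at least 3 libraries. Scripts were tested on simulated data. Alternatives were other scalings, pseudocounts and filters, voom on the recovered counts, library weights, the title label as a block, the 6 libraries alone, and each library left out.

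The members and the 46 gene lists were chosen with earlier results of these data known. Genes named are Tlr4, the TLR4 chain, the 12 largest falls and 12 largest rises among genes that passed without overlap at a mean log2 level above 1 (predicted and RIKEN symbols left out), and the 3 smallest p-values of each list. Others are said to be chosen after their values were seen. So were Arg1 and Fabp7, genes given only as members of a counted list, and the 6 printed promoters, picked after their matches were known. Promoters come from RefSeq, GRCm38.p6, and matched 9716 of 12164 tested genes.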

Additional observations from a re-analysis of the deposited data

Results flagged for a closer look

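Pf4 and Tmem40, both on the platelet list, were the named genes whose genotype difference itself differed between Salmonella and PBS by limma's test of the difference between the contrasts. For Pf4 the knockout minus wild-type log2 difference under Salmonella was lower than under PBS by a log2 difference of -2.11, and the adjusted p was 0.00863. In wild-type hosts Pf4 rose from 9.46 ± 0.381 FPKM under PBS to 132 ± 10.1 FPKM under Salmonella (SD, n = 3), and in knockout hosts from 8.88 ± 1.97 to 31.2 ± 6.58. For Tmem40 the same difference of differences was -2.30, with an adjusted p of 0.00907. Tmem40 averaged 1.21 FPKM in wild-type and 2.41 in knockout hosts under PBS, and 4.21 and 1.25 under Salmonella, so its order between the genotypes turned. Neither passed with voom, where no gene did.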

How the results depend on the processing

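The count of 1175 genes under Salmonella became 5633 with library weights, 681 with voom, 15 with the 6 Salmonella libraries alone, and 43 to 4735 with 1 library left out. It was 43 without wild-type Salmonella F-1, 45 without knockout Salmonella M-1 and 4735 without wild-type Salmonella M-2. The PBS count of 0 became 1 without a filter and stayed at 0 to 0 with 1 library left out. The count of 3 genes for the difference between treatments became 6 with FPKM as deposited, 3207 with library weights, 0 with voom and 2 to 2359 with 1 library left out. Of the 102 named genes that passed, none changed direction under any alternative. With the 6 Salmonella libraries alone 7 kept their call and 95 lost it. With voom 72 kept it, with no filter 79, and with 1 library left out 7 to 102. Among named genes that did not pass, signs turned with median-of-ratios scaling for Traf6 (-0.00360) and Irf3 (-6.04e-05), with FPKM as deposited for Tab2 (0.11) and Ikbkb (0.0927), and with library weights for Tab2 (0.0201) and Irf3 (-0.0413). With 1 library left out they turned for Cd79b (-0.28 to 0.0442), Car3 (-1.66 to 0.25), Tab1 (-0.10 to 0.27), Tab2 (-0.0505 to 9.79e-05), Ikbkb (-0.0911 to 0.0231), Irak4 (-0.0142 to 0.40), Traf6 (-0.00733 to 0.0636), Irf3 (-0.0464 to 0.0642), Ticam1 (-0.00340 to 0.23), Ticam2 (-0.31 to 0.0518) and Sbsn (-0.37 to 0.0364). The cause was not tested. A fit that left a group with 2 libraries took its spread from all groups. Depth limits low genes, where 3 fragments in 1 kb equal 0.0774 to 0.0983 FPKM.

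Each group has the same 3 title labels. With the label as a replicate block, 1098 genes passed under Salmonella, 428 higher and 670 lower, 0 under PBS and 4 for the difference between treatments. Deviations from the group means correlated between same-labelled libraries at 0.337, -0.333 and 0.008 under Salmonella and at 0.064, 0.396 and -0.031 under PBS. The letter follows the Y-linked reads in the Salmonella libraries, but nothing pairs single libraries across groups. With the block, 96 of the 102 named calls remained.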

Other observations

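Some regulatory and costimulatory genes of the lists above were not described there. Foxp3, the factor of regulatory T cells, read 0.843, 0.626 and 0.363 FPKM in the wild-type and 0.272, 0.315 and 0.530 in the knockout Salmonella libraries. Ccl22, which attracts such cells, read 9.53, 2.55 and 2.04 against 1.92, 2.22 and 1.28, and Fscn1, a marker of mature dendritic cells, 157, 136 and 182 against 195, 227 and 209.6. The costimulatory ligands Cd80 and Cd86 read 5.46, 8.79 and 1.77 against 1.40, 0.881 and 1.56 and 4.11, 2.13 and 1.16 against 1.91, 1.69 and 1.57 FPKM. Havcr2, which encodes the checkpoint receptor TIM-3, read 5.43, 6.45 and 4.08 against 2.60, 2.73 and 2.50, and Vsir, which encodes VISTA, 11.97, 16.8 and 11.2 against 9.19, 5.79 and 7.91. With limma none of these 7 genes passed at an adjusted p under 0.05, and the smallest adjusted p was 0.0507 for Cd80 (log2 -1.64). Without wild-type M-2, Cd80, Havcr2, Vsir, Foxp3 and Ccl22 passed as lower, with limma adjusted p-values of 0.000224, 0.0188, 0.0256, 0.0139 and 0.0202. In that fit 19.2% of all genes were lower. As leaving out M-2 was bound to widen most differences, these 5 calls are no added support.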
